A study of Mus musculus with 4 samples.

Results

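Ccl2, Ccl7, Ccl8 and Ccl12 encode secreted CC chemokines that are grouped here as ligands of the receptor CCR2, and Ccr2 encodes that receptor. These 5 of the 31053 genes in the count files were chosen by name as the monocyte-attracting ligands and their receptor, and no member was used to define a cell class. CCR2 is a G protein-coupled receptor best known for bringing Ly6C-high monocytes out of the bone marrow and into inflamed or tumor-bearing tissue, where they can become macrophages and dendritic cells. CCL2 and CCL7 are its main ligands in the mouse, CCL12 is a close mouse relative of CCL2, and mouse CCL8 is best known as a ligand of CCR8. In skin, the ligand genes are known to be transcribed by macrophages, mast cells, fibroblasts and keratinocytes.

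The study compared immune cells of skin tumors with those of control skin. CD45+ DAPI- cells were sorted from 2 control skins of uninoculated C57 mice and from 2 skin tumors, and each sample gave 1 library of 3′ ends of RNA from droplets. Tumors grew for 2 weeks after cells of the 2323 line were injected into the flank of C57BL/6 mice of 8 to 10 weeks. This line comes from 1 engineered mouse model, with the K14rtTA, tetOCre and P53-/- alleles among others, in which a keratin promoter directs the changes to epidermis, so the tumors stand for 1 line and the injected cells carry changes that the host cells do not. The mice of all 4 samples carry the C57/BL6 genotype in the labels, the age of the control mice was not given in the sources used here, and all tissues were digested with collagenase for 2 h at 37 °C. The labels name separate samples but not which animal each came from, so the p-values measure the spread between these samples.

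The 4 ligand genes lie together on chromosome 11 of GRCm38, all on the plus strand and within 81.2 kb. Ccl2 (ENSMUSG00000035385) spans 82035571 to 82037453, Ccl7 (ENSMUSG00000035373) 82045712 to 82047525, Ccl12 (ENSMUSG00000035352) 82101845 to 82103400 and Ccl8 (ENSMUSG00000009185) 82115185 to 82116799. Ccr2 (ENSMUSG00000049103) lies on chromosome 9, from 124101950 to 124113557 on the plus strand. RefSeq sequence of GRCm38.p6 in front of the RefSeq gene start was matched for 3 members. This start is the one given above for Ccl12 and Ccl8, whereas for Ccr2 it is 124102183, inside the annotated span that begins at 124101950. The 150 bases before the RefSeq start are shown for the neighbors Ccl12 and Ccl8, whose levels rose in tumors and which shared the macrophage class described below, and for Ccr2, which had another pattern. Capitals mark TATAAAA, the letters of a TATA box, which were looked for on the gene's strand after the sequences had been seen.
Ccl12, chr11:82101695-82101844, plus strand: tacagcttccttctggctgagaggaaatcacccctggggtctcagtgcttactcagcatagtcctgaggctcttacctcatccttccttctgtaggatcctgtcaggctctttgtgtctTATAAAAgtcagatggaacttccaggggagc
Ccl8, chr11:82115035-82115184, plus strand: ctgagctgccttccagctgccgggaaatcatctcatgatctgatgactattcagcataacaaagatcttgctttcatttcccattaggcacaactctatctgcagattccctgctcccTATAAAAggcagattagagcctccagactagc
Ccr2, chr9:124102033-124102182, plus strand: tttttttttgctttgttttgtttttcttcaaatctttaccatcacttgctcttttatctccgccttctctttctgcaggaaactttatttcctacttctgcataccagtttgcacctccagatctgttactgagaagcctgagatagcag

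TATAAAA began 31 bases before the Ccl12 start and 32 bases before the Ccl8 start, and it was not found in the 250 bases before the RefSeq start of Ccr2, and the sequence before the start at 124101950 was not searched as such. Of 32851 RefSeq promoter windows of 250 bases, 3.02% held these letters on the gene's strand. In a global alignment of the windows, Ccl12 and Ccl8 matched at 150 of 230 aligned bases (65.2%), whereas the pair of Ccr2 with Ccl12 matched at 128 of 215 (59.5%). None of the 3 windows held the AP-1 letters TGANTCA, the STAT site (TTC and GAA with 3 bases between), the interferon element (GAAA and GAAA with 2 bases between) or the NF-kB consensus on either strand, which 6.75%, 7.02%, 2.98% and 7.25% of the windows held.

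The libraries held 3499 and 3862 barcodes for control skin and 5176 and 2258 for tumor, with 34893543 to 73904272 UMIs (unique molecular identifiers, which count RNA molecules). Filters on depth, mitochondrial UMIs and doublets left 12395 of 14795 barcodes, with medians of 10270 to 13072 UMIs per cell. At most 13 barcodes of a library were also found in another library. Cells were put into 21 classes by UMIs of marker genes. Of the macrophage-like cells, 98.9% held C1qa and 91.2% Cd68. Plac8 was found in 94.0% of monocyte-like cells and Cma1 in 95.6% of mast-like cells. Of the cells considered for the macrophage class, 7.12% lay within 1.5-fold of its C1q threshold. C1q-high macrophage-like cells held 4.19% and 9.21% of the UMIs of the control libraries and 55.9% and 44.2% of those of the tumors.

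Over all cells, the 4 ligand genes and Ccr2 were higher in both tumors than in both control skins. The share of all genes with this order was not counted, so the order alone does not set the members apart. Ccl8, a chemokine of tissue macrophages, had 0.841 and 1.46 UMIs per 10,000 library UMIs in control skins and 10.7 and 6.83 in tumors. Ccl2, the prototype ligand of CCR2, had 0.358 and 0.831 in control skins against 3.16 and 5.01 in tumors. Tumor 1 was the higher tumor for Ccl8 and tumor 2 for Ccl2. Ccl12 had 0.107 and 0.224 UMIs per 10,000 in control skins and 2.19 and 0.923 in tumors, and Ccl7 had 0.324 and 0.832 against 2.56 and 2.32. For the receptor gene Ccr2 the levels were 1.08 and 1.52 in control skins and 2.63 and 1.99 in tumors, the smallest step of the 5 genes. Control 1 lay below control 2 for all 5 genes.

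**Figure D1:**
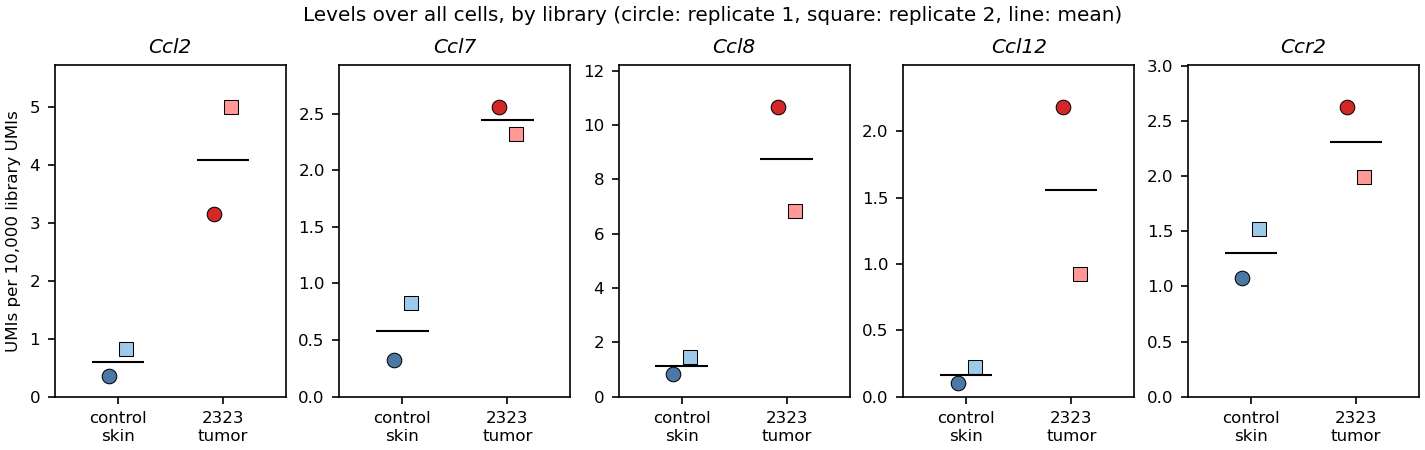
UMIs per 10,000 library UMIs (linear axes from 0) of the 5 genes over all kept cells, with 1 point per library and a line at the mean of the 2 libraries of a group. Both tumors lie above both control skins in each panel, from 0.841 and 1.46 to 10.7 and 6.83 for Ccl8. The share of all genes with this order was not counted.

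Of the 5 members, Ccl2, Ccl8 and Ccl12 passed the threshold of an adjusted p under 0.05 in the all-cell sums, where 23.2% of the 16354 genes tested did. The log2 fold change, tumor minus control, was 2.60 ± 0.49 (SE, n = 2 per group) for Ccl2, with a Benjamini-Hochberg adjusted p of 0.0306 by the quasi-likelihood test of edgeR. For Ccl8 it was 2.76 ± 0.39 (adjusted p = 0.0180, edgeR) and for Ccl12 3.06 ± 0.60 (adjusted p = 0.0320, edgeR). Ccl7 at 1.91 ± 0.48 (adjusted p = 0.0519, edgeR) and Ccr2 at 0.66 ± 0.24 (adjusted p = 0.114, edgeR) did not pass. All 3 calls, like every other call of this fit, were lost when either control library was left out, with values of 2.10 to 3.69. A single control then stood for its group. The call of Ccl12 was also lost with the replicate number as a block (adjusted p = 0.0632, edgeR). That is the highest adjusted p of Ccl12 over 9 settings on all 4 libraries, the reported fit included, and the lowest was 3.88e-08, with DESeq2. With 2 libraries on each side, the smallest p of an exact permutation test is 0.333.

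The levels over all cells combine how many UMIs each class contributed and how high the gene was within it. For each group, the levels per class were taken from the pooled UMIs of its 2 libraries, and the shares of the classes were averaged over them. Holding the levels at those of control skin and changing only the shares to those of tumors gave Ccl8 2.96 times its control level. Changing only the levels per class gave 2.76 times, against 7.95 times for both together. For Ccl2 these folds were 2.59, 2.70 and 6.63, for Ccl12 3.55, 3.48 and 10.3, and for Ccl7 2.82, 1.94 and 4.33. Ccr2 was different, with 1.99 from the shares alone, 1.13 from the levels alone and 1.83 together. These folds are arithmetic on pooled levels and mean shares of 2 libraries per group and carry no test. The classes included the unassigned cells and the mixed cells described below. In the units used above, mixed cells had Ccl8 of 3.72 and 2.88 in control skins and 1.82 and 9.63 in tumors. Of the mixed cells, 37 of 182 and 81 of 234 in control skins passed the macrophage thresholds, and 5 of 18 and 53 of 76 in tumors. A fold from the levels alone can therefore include a changed make-up of a class, and the part of the mixed cells in it was not tested.

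**Figure D2:**
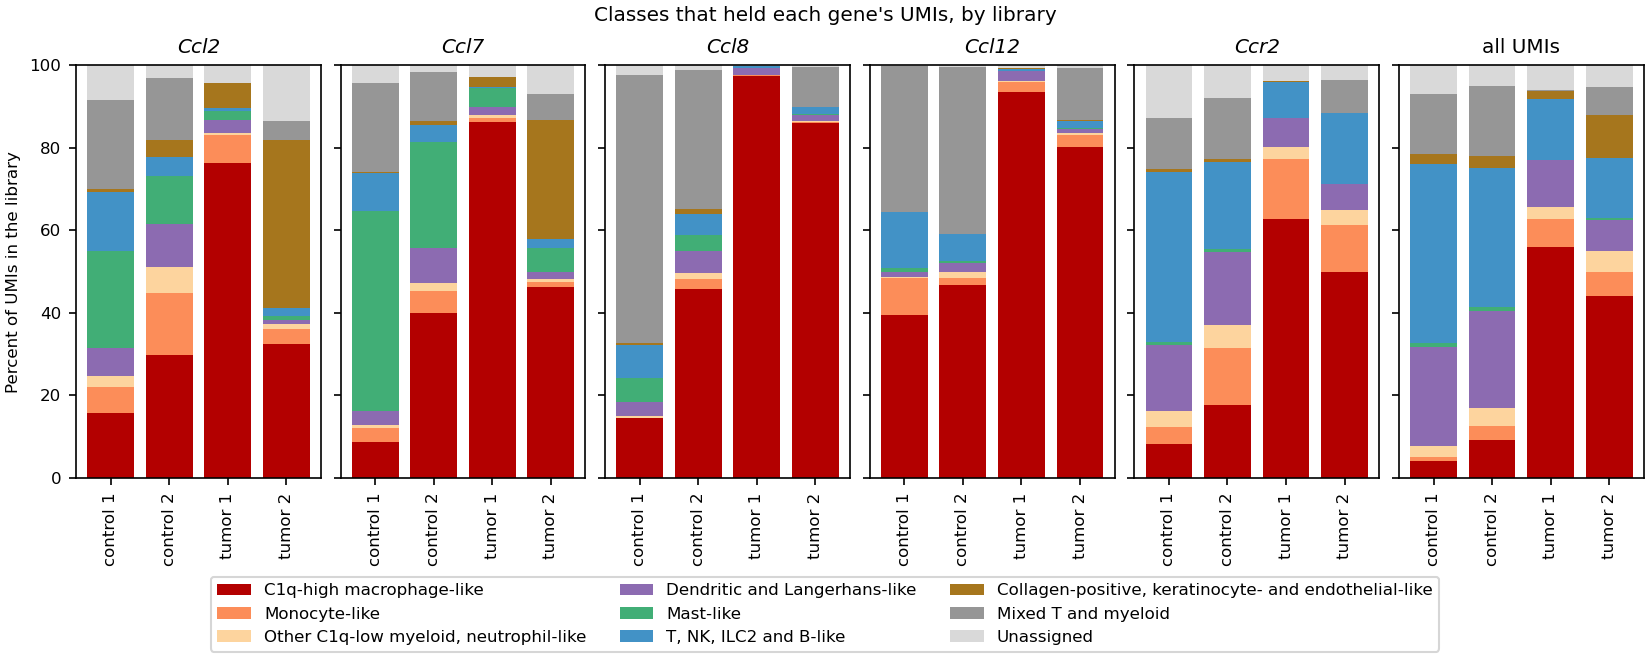
Percent of each gene's UMIs in a library that each group of classes held, with all UMIs of the library for comparison in the right panel. C1q-high macrophage-like cells held 97.4% and 86.0% of Ccl8 in tumors, while collagen-positive cells held 40.7% of Ccl2 in tumor 2.

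C1q-high macrophage-like cells held more UMIs of each ligand than any other class in control 2 and tumor 1. The same held for all ligands but Ccl2 in tumor 2 and for Ccl12 alone in control 1, where mast-like cells led for Ccl2 and Ccl7 and a class of mixed cells for Ccl8. Macrophage-like cells held 97.4% and 86.0% of the Ccl8 UMIs of the tumors and 93.6% and 80.3% of their Ccl12. In control skins this class held 14.5% and 45.8% of Ccl8 and 39.6% and 46.8% of Ccl12. Of the Ccl2 UMIs, macrophage-like cells held 15.8% (control 1), 29.7% (control 2), 76.4% (tumor 1) and 32.6% (tumor 2). The class with most Ccl2 UMIs was macrophage-like in tumor 1 and collagen-positive in tumor 2.

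A further class, of cells with CD3 genes beside genes of macrophages, Langerhans cells or dendritic cells, held 64.9% and 33.7% of the Ccl8 UMIs of control skins against 0.0300% and 9.70% in tumors. These mixed cells numbered 182, 234, 18 and 76 in control 1, control 2, tumor 1 and tumor 2. Their median depth was 29498 to 30259.5 UMIs in 3 libraries and 3809.5 in tumor 1. The 37 and 81 mixed cells of control skins that passed the C1q and macrophage thresholds had 12.96 and 6.82 Ccl8 UMIs per 10,000, beside 2.91 and 7.24 in the macrophage-like class, and held 50.9% and 29.7% of the Ccl8 of their libraries. Whether such cells are doublets was not tested, and the test within the macrophage-like class is given below with and without them.

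**Figure D3:**
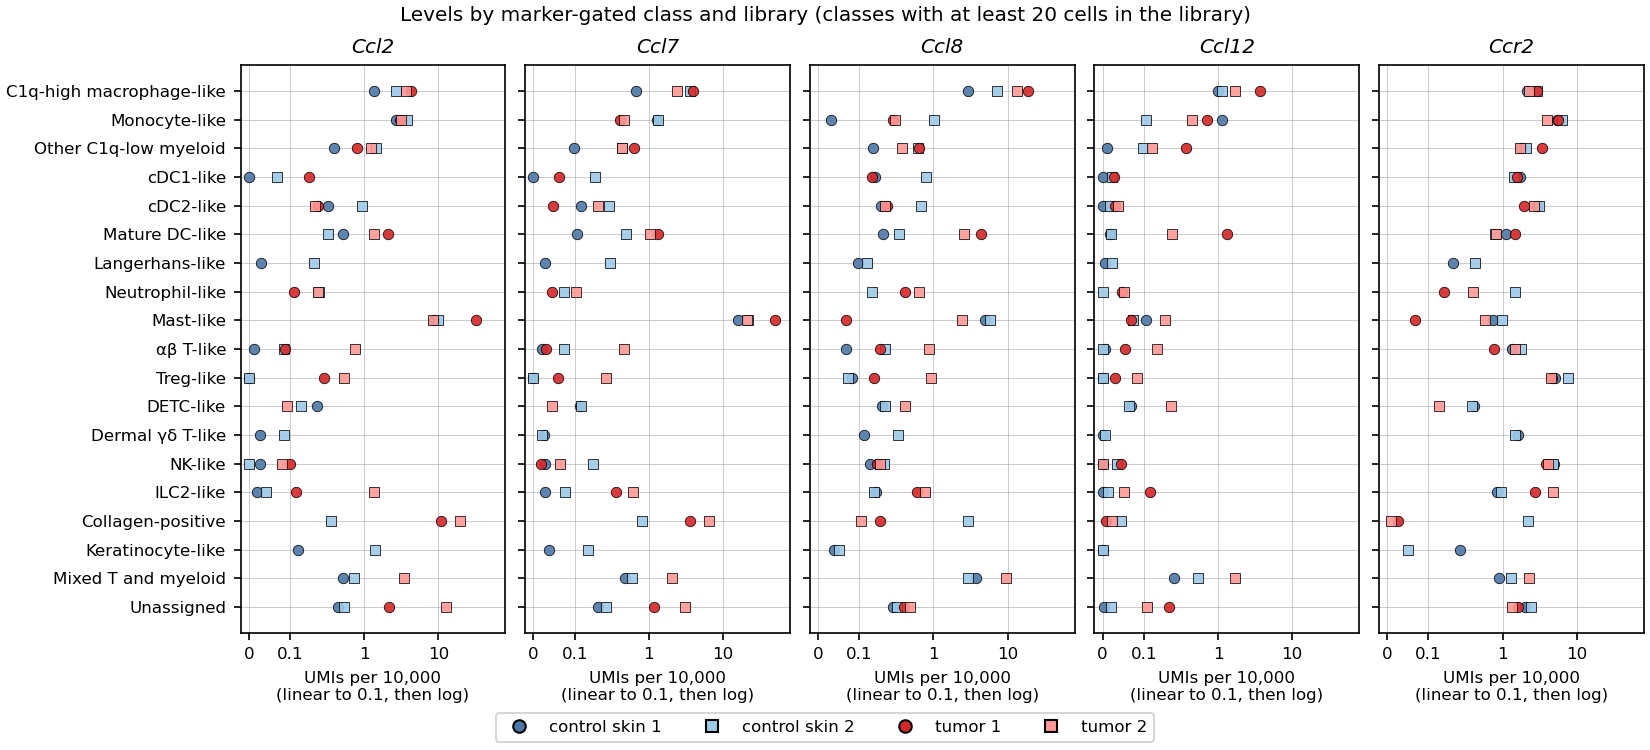
UMIs per 10,000 of each gene (linear to 0.1, then a log axis) in the marker-gated classes, with 1 point per library that had at least 20 cells of the class. Mast-like cells are highest for Ccl7 in all 4 libraries, at 16.1 to 50.6, and macrophage-like cells for Ccl8 in both tumors, at 18.6 and 13.3.

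In tumors Ccl8 was highest in macrophage-like cells. C1q-high macrophage-like cells had 2.91 and 7.24 UMIs per 10,000 in control skins and 18.6 and 13.3 in tumors. Both tumors lay above both control skins. Among classes with at least 20 cells in both tumors, the next was mature dendritic cell-like, cells known to carry antigen to lymph nodes, with 4.32 and 2.60, and the ranges of these neighboring classes did not overlap. The same class had 0.212 and 0.348 in control skins. It was gated without an upper limit on C1q genes. C1qa was found in 39.4% of its cells, beside 80.8% for Ccr7 and 27.4% for Fscn1, 2 of its marker genes. The part of macrophage RNA in the Ccl8 of this class was not tested. In control skins mast-like cells (4.96 and 5.74) and macrophage-like cells had overlapping ranges. A few mast-like cells carried this Ccl8: 4 of 41 in control 1 and 6 of 57 in control 2 held 99.4% and 95.8% of the summed level. The median mast-like cell had 0 in both. Mast-like cells of tumor 1 had the lowest Ccl8 and C1qa of the libraries, at 0.0677 and 0.136 UMIs per 10,000. The other 3 libraries had 2.45 to 5.74 Ccl8 and 1.51 to 3.56 C1qa, and among them tumor 2 had the most C1qa and the least Ccl8. The part of macrophage RNA in the Ccl8 of mast-like cells was not tested.

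After each cell was thinned to 1000 UMIs, 9.72% and 16.3% of control and 33.9% and 32.0% of tumor macrophage-like cells held a Ccl8 UMI. In αβ T-like cells, which should lack Ccl8, this share was 0%, 0.606%, 2.96% and 4.93%, at median depths of 8886.5 to 9099 UMIs against 14995 to 20111 in macrophage-like cells. The 0 of 392 cells of control 1 is a limit of thinning, since 5.10% of them held a Ccl8 UMI at full depth. Ccl8 was also unevenly spread among macrophage-like cells. The top 10% of cells by Ccl8 level held 97.6% and 88.6% of the summed level in control skins and 65.5% and 66.0% in tumors.

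Ccl8 was highest in macrophage-like cells that carried genes of resident dermal macrophages, mainly Folr2 and Cbr2. Folr2 was found in 27.1% and Cbr2 in 18.2% of the class, against 3.29% for Cd163 and 2.4% for Lyve1. Cells with 2 or more UMIs of Folr2, Lyve1, Cd163 and Cbr2 had 10.5 and 13.8 Ccl8 UMIs per 10,000 in control skins and 41.2 and 29.6 in tumors. Those with fewer had 0.585 and 0.419 in control skins and 11.3 and 5.43 in tumors. The first were higher in 4 of 4 libraries, and each side was higher in both tumors than in both control skins. The cells with resident genes numbered 17 and 88 in control skins and 361 and 181 in tumors. Ccl2, Ccl7 and Ccl12 also had the higher level on the side with resident genes in 4 of 4 libraries, by a narrow step for Ccl12 in control 2 (1.17 against 1.10). Ccr2 went the other way in tumors, with 1.82 and 1.71 on the side with resident genes and 3.31 and 2.52 on the other. The split rests on raw UMIs, and the side with resident genes was the deeper in 3 of 4 libraries (control 2, tumor 1 and tumor 2), with medians of 24764 against 17625 UMIs in tumor 1.

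**Figure D4:**
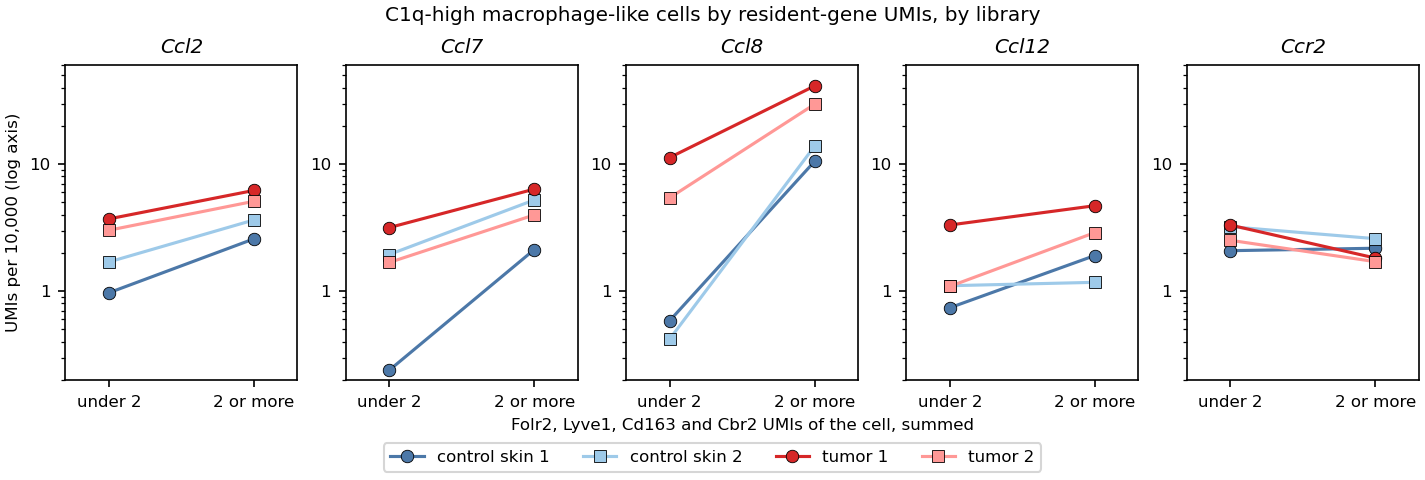
UMIs per 10,000 (log axis) of each gene in C1q-high macrophage-like cells with fewer than 2 and with 2 or more summed UMIs of Folr2, Lyve1, Cd163 and Cbr2, with 1 line per library. Ccl8 lies higher on the right in each library, from 11.3 to 41.2 in tumor 1, and Ccr2 lies lower on the right in both tumors.

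Splits of macrophage-like cells by Arg1, which encodes arginase, and by the cycling genes Mki67 and Top2a gave smaller steps in tumors. In tumor 1, cells with Arg1 had 20.7 and cells without it 18.3 Ccl8 UMIs per 10,000, and in tumor 2 the order turned, at 7.88 and 16.3. Cycling cells had 11.6 Ccl8 UMIs per 10,000 in tumor 1 and 12.5 in tumor 2, below the 19.4 and 13.3 of the others. Control skins held at most 11 cells with Arg1 and 6 cycling cells in this class.

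Ccl12 was a gene of macrophage-like cells as well, with 1.01 and 1.14 UMIs per 10,000 in control skins and 3.66 and 1.68 in tumors. In tumors the next of these classes, mature dendritic cell-like cells at 1.34 and 0.244, did not overlap it. As given above, this next class was gated without an upper limit on C1q genes. In monocyte-like cells Ccl12 had 1.15 and 0.108 in control skins and 0.715 and 0.448 in tumors. All the Ccl12 UMIs of monocyte-like cells of control 1 came from 3 of 26 cells, with up to 54.7 UMIs per 10,000 in a cell.

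Ccl7 was highest in mast-like cells of each library. These cells, which store histamine and proteases such as those of Cma1 and Mcpt4, had 16.1 and 21.6 Ccl7 UMIs per 10,000 in control skins and 50.6 and 20.9 in tumors. They made up 1.42% and 1.90% of control cells and held 48.6% and 25.6% of control Ccl7, and 4.44% and 5.78% of Ccl7 in tumors. Thinned to 1000 UMIs, 50% to 71.9% of mast-like cells held a Ccl7 UMI, against 0.255% to 0.606% of αβ T-like cells. Their C1qa was lowest in tumor 1, where Ccl7 was highest. In control 1, control 2 and tumor 2, C1qa was 1.51, 2.92 and 3.56 UMIs per 10,000, beside Ccl7 of 16.1, 21.6 and 20.9. The part of macrophage RNA in the Ccl7 of mast-like cells was not tested.

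Ccl2 had the same leading class in control skins, with 8.59 and 9.95 UMIs per 10,000 in mast-like cells, above the 2.67 and 3.76 of monocyte-like cells. In tumors mast-like cells had 32.5 and 8.41 Ccl2 UMIs per 10,000. Only tumor 1 stood above the control skins, and it held 32 mast-like cells. Of the mast-like cells, 84.2% in control 2 and 84.4% in tumor 1 held a Ccl2 UMI at full depth. Among classes other than the mixed and unassigned cells, Ccl2 and Ccl7 followed each other, with a Pearson r of 0.911 over 58 class-by-library sums that share libraries.

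Collagen-positive cells were the other high class for Ccl2 and Ccl7 in tumors. They were gated on Col1a1, Col1a2, Col3a1, Col6a1 and Col6a2 and numbered 12, 33, 50 and 89 in control 1, control 2, tumor 1 and tumor 2. They had 10.9 and 19.7 Ccl2 UMIs per 10,000 in tumors and 0.0889 and 0.361 in control skins. Ccl7 was 3.54 and 6.49 in tumors, and Ccl8 was 0.188 and 0.105 in tumors against 1.51 and 2.93 in control skins.

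The collagen-positive cells of tumors and of control skins differed in depth and in the genes found in them. Ptprc, which encodes CD45, was found in 20% and 14.6% of them in tumors and 75.0% and 84.8% in control skins. Col6a1 was found in 86.0% and 95.5% in tumors against 16.7% and 12.1% in control skins. Col1a1 went the other way, with 22% and 25.8% in tumors against 91.7% and 63.6%. The keratin gene Krt14 was found in 0% of them in tumors. Their median depth was 24482 and 37057 UMIs in tumors and 4451.5 and 3804 in control skins, and such shares grow with depth. Cells without Ptprc among the unassigned cells also had high Ccl2 in tumors, at 7.65 and 22.2 UMIs per 10,000 in 53 and 26 cells. Col3a1 was found in 24.5% and 61.5% of them, at median depths of 3008 and 25697 UMIs. Unassigned cells with Ptprc had 1.42 and 7.62 Ccl2 UMIs per 10,000 in tumors and 0.442 and 0.537 in control skins. Whether the collagen-positive cells of tumors are host fibroblasts or 2323 cells cannot be told apart with the genes used here. What the unassigned cells are was not tested. Leaving collagen-positive, keratinocyte-like and endothelial-like cells out of the all-cell sums gave log2 fold changes of 2.29 ± 0.42 (SE) for Ccl2 and 1.75 ± 0.48 for Ccl7, with adjusted p-values of 0.0216 and 0.0538 by edgeR. This exclusion was chosen after seeing the data.

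Within the C1q-high macrophage-like class, where 1.53% of 12270 genes passed, none of the 5 members passed the threshold. Ccl8 had a log2 fold change of 1.47 ± 0.43 (SE, n = 2 per group) with an adjusted p of 0.172 by edgeR, and Ccl12 one of 1.12 ± 0.34 with an adjusted p of 0.182. Ccl2 had 0.81 ± 0.32, Ccl7 0.37 ± 0.66 and Ccr2 -0.12 ± 0.23, with adjusted p-values of 0.306, 0.857 and 0.872 by edgeR. DESeq2 called 619 genes on the same sums, against 188 with the reported settings. Among them were Ccl8 (adjusted p = 0.00985, DESeq2) and Ccl12 (adjusted p = 0.0456, DESeq2). Over 8 settings, the reported fit included, the adjusted p of Ccl8 ran from 1.04e-08 to 0.237. The lowest was that of edgeR with no low-count filter, which called 1229 genes. With the mixed cells that passed the macrophage thresholds added, Ccl2 was called at 1.14 ± 0.22 (adjusted p = 0.0496, edgeR), among 690 genes. Ccl8 then had 1.01 ± 0.20 (adjusted p = 0.0566, edgeR). This alternative was chosen after seeing the data.

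**Figure D5:**
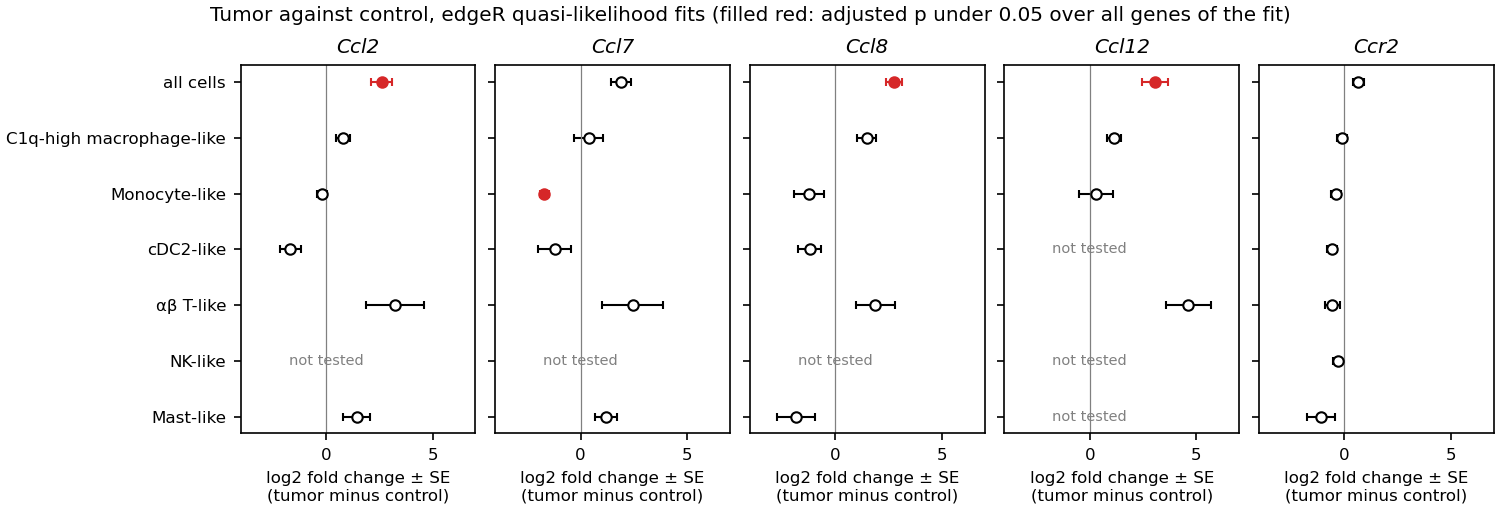
Log2 fold change, tumor minus control, with its SE for each gene over all cells and within 6 classes chosen by design, each with at least 20 cells in each library, from edgeR fits on 2 libraries per group. Ccl2, Ccl8 and Ccl12 pass the threshold over all cells, and within classes the single call is the lower Ccl7 of monocyte-like cells, at -1.69.

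In monocyte-like cells, where 0.382% of 8380 genes passed, 1 of the 5 members did. Ccl7 had 1.27 and 1.35 UMIs per 10,000 in control skins and 0.406 and 0.464 in tumors, so that the groups did not overlap. It fell by 1.69 ± 0.23 on the log2 scale (SE, n = 2 per group, adjusted p = 0.0189, edgeR). A few cells carried it: the top 10% of cells by Ccl7 level, 3 of 26 in control 1 and 12 of 118 in control 2, held 99.1% and 94.3% of the summed level, and in tumors they held 98.6% and 93.1%. This call, like every other call in the class, was lost without either control library, where a single control stood for its group. The values of Ccl7 were then -1.77 and -1.57. Control 1 had 26 monocyte-like cells. Ccl2 had 2.67 and 3.76 UMIs per 10,000 in control skins and 3.03 and 3.14 in tumors, with a log2 fold change of -0.17 ± 0.24. Ccl8 had 1 UMI in control 1 and 140 in control 2, where 12 of 118 cells held 99.1% of the summed level, and its fold change of -1.22 ± 0.68 turned to 3.18 without control 2.

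The tumor effect on Ccl8 was larger in macrophage-like than in monocyte-like cells. The difference of the log2 fold changes was 2.49 ± 0.44 (SE, adjusted p = 0.0171 by edgeR's interaction test), where 0.977% of 10643 genes passed. It was -0.93 without control 2, where control 1 with its single Ccl8 UMI in monocyte-like cells stood alone for control skin. DESeq2 did not call it (1.42, adjusted p = 1.00), and the lowest adjusted p over 6 settings, the reported fit included, was 3.56e-17, with no low-count filter. For Ccl7 the difference was 2.14 ± 0.49 (adjusted p = 0.0647, edgeR) and for Ccl2 0.98 ± 0.22 (adjusted p = 0.0602, edgeR). Ccl12 at 0.49 ± 0.65 and Ccr2 at 0.28 ± 0.20 did not pass (adjusted p = 0.861 and 0.682, edgeR).

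In the other classes fitted, no member passed with the reported settings. This held for cDC2-like cells, where 6.99% of genes passed, αβ T-like cells (1.79%), NK-like cells (3.17%) and mast-like cells (1.76%). In mast-like cells Ccl2 had a log2 fold change of 1.43 ± 0.65 and Ccl7 one of 1.20 ± 0.50 (adjusted p = 0.298 and 0.261, edgeR), and without tumor 1 the value of Ccl2 was -0.0041. In cDC2-like cells Ccl2 had 0.328 and 0.925 UMIs per 10,000 in control skins and 0.240 and 0.219 in tumors (log2 fold change -1.68 ± 0.49, adjusted p = 0.0879, edgeR). Among αβ T-like cells, those of tumor 2 had the highest Ccl2, C1qa and Lyz2, at 0.755, 2.95 and 22.6 UMIs per 10,000. The other libraries had at most 0.0885, 0.525 and 1.79, and among them control 1 had the most Lyz2 and the least Ccl2 (0.0126). The part of macrophage RNA in the ligands of αβ T-like cells was not tested. Some calls appeared under other settings. With no low-count filter edgeR called Ccl2 and Ccl8 in cDC2-like cells and Ccl2, Ccl7 and Ccl8 in mast-like cells. In αβ T-like cells it called all 4 ligands. Their adjusted p-values (edgeR) ran from 4.00e-12 (Ccl2 in αβ T-like cells) to 0.0227 (Ccl7 in mast-like cells). Over all genes this setting called 1798, 637 and 1907 in these classes, against 633, 76 and 192 with the reported settings. DESeq2 called Ccl2 in cDC2-like cells (adjusted p = 0.0317), among 610 genes, and Ccl12 in αβ T-like cells (adjusted p = 0.0216), among 787. With doublets kept, edgeR called the latter (adjusted p = 0.0349) among 574 genes. Calls of members in mast-like, cDC2-like and αβ T-like cells also changed without 1 tumor library, where a single tumor stood for its group. Ccl12 did not pass the low-count filter in cDC2-like and mast-like cells, and in NK-like cells Ccr2 was the 1 member tested.

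Ccr2 had another order of classes than its ligands. Monocyte-like cells had 5.41 and 6.28 Ccr2 UMIs per 10,000 in control skins and 5.53 and 3.93 in tumors. Treg-like cells, which carry Foxp3, had 5.09 and 7.72 in control skins and 4.62 and 4.50 in tumors, and overlapped with monocyte-like cells in both groups. NK-like cells followed with 4.93 and 4.78 in control skins and 3.82 and 4.12 in tumors. These lymphoid classes thus stood next to monocyte-like cells for this receptor gene.

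Macrophage-like cells had 2.11 and 2.90 Ccr2 UMIs per 10,000 in control skins and 2.95 and 2.25 in tumors, overlapping ranges. The epidermal residents had little, with 0.212 and 0.423 in Langerhans-like cells and 0.417 and 0.384 in DETC-like cells (dendritic epidermal T cells) of control skins. Each of these classes held 11.1% to 23.6% of the cells of a control skin and at most 1.33% of those of a tumor. ILC2-like cells had 0.828 and 0.948 in control skins and 2.75 and 4.71 in tumors, where they numbered 28 and 34 and were not tested. With the reported settings no Ccr2 fold change within a class passed, and the log2 values were -0.12 in macrophage-like, -0.39 in monocyte-like, -0.58 in cDC2-like, -0.56 in αβ T-like, -0.32 in NK-like and -1.09 in mast-like cells.

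Thinned to 1000 UMIs, 34.6% and 48.3% of control and 35.9% and 27.8% of tumor monocyte-like cells held a Ccr2 UMI. In Langerhans-like cells of control skins, a low class for this gene, the shares were 0.255% and 2.41%, at median depths of 16671 and 17451 UMIs against 13498.5 and 12434.5 in monocyte-like cells. Lymphoid classes together held 41.2% and 21.1% of the Ccr2 UMIs of control skins and 8.74% and 17.1% of those of tumors. Macrophage-like cells held 62.7% and 49.9% in tumors, at a level per UMI below that of monocyte-like cells in both.

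Ligands were found together in the same macrophage-like cells. At full depth, UMIs of all 4 ligands were found in 2.78% and 8.37% of control and 31.2% and 22.0% of tumor macrophage-like cells, and no ligand in 48.6%, 28.4%, 10.5% and 13.9%. Both tumors lay above both control skins in the first share. Ccr2 and at least 1 ligand were found together in 40.3% and 52.1% of control and 61.5% and 61.2% of tumor macrophage-like cells. In mast-like cells, exactly 2 ligands was the most frequent state, at 52.6% to 81.2% of cells. These shares grow with depth, which was 14995 to 20111 UMIs per macrophage-like cell and 3980 to 5749 per mast-like cell.

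Over the 58 class-by-library sums with at least 20 cells, and among 12823 genes with enough UMIs, the nearest genes of each member were taken by Pearson correlation of log2 levels. The mixed and the unassigned cells were left out of these sums. The nearest of Ccl8 were C1qc (0.882), C1qb (0.873), C1qa (0.845), Pf4 (0.835) and Folr2 (0.785), of which the C1q genes were used to gate macrophages. Ccl12 was nearest to Lilra5 (0.831), Spic (0.814), Siglec1 (0.806), 4930430E12Rik (0.803) and Gdf3 (0.801). Ccl2 was nearest to Ecm1 (0.817), Tpp1 (0.806), Oaf (0.801), Tmem205 (0.776) and Nt5dc2 (0.776), and Ccl7 shared 2 of these, with Oaf (0.822), Tpp1 (0.795), Stard13 (0.779), Papss2 (0.775) and Vwa5a (0.774). Among the nearest genes of Ccr2 were AI504432 (0.761), Dock2 (0.739) and Ptpn18 (0.732). Its r with the ligands ran from -0.21 for Ccl2 and Ccl7 to 0.23 for Ccl12.

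Other genes of the pathway were counted from fixed lists, beside a median log2 fold change of 0.05 over all genes of the all-cell sums. Of 10 other CC chemokines tested, Ccl4 was higher in tumors by 1.76 ± 0.34 (SE) and Ccl27a, a keratinocyte chemokine, was lower by -4.54 ± 0.29, with a list median of 1.17. Among 6 other receptors, Ccr1 (2.15) rose and Ccr8 (-3.03), a receptor of CCL8 found on skin T cells, fell, with a list median of 0.08. Among 9 monocyte genes not used in the gate, Itgam (1.89) and Itga4 (1.40) rose and Spn (-1.20) fell, with a median of 1.16. Among 12 inducers and regulators of ligand genes, Il1b (2.22), Irf1 (1.72) and Jun (0.55) rose and Stat3 (-0.81) fell, with a median of 0.57. Csf1, the macrophage growth factor gene, rose by 2.75 as 1 of 5 genes of the growth factor axis, whose median was 0.33.

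Within macrophage-like cells fewer of these genes passed. Ccl5 (2.18 ± 0.31, SE), Ccr1 (1.75 ± 0.22), Il1b (1.88 ± 0.23) and Irf1 (1.15 ± 0.19) rose, with adjusted p-values of 0.0224 to 0.0449 by edgeR. The list medians there were -0.06 for 9 other chemokines, 0.88 for 3 receptors, 0.01 for 12 inducers, 0.22 for 9 monocyte genes and -0.02 for 4 growth factor genes, beside 0.04 over all genes. Within monocyte-like cells, Il1b rose by 2.26 ± 0.28 (adjusted p = 0.0177, edgeR). The list medians in monocyte-like cells were 0.46, 0.26, 0.31, -0.86 and 0.06 in the same order, beside 0.01 over all genes.

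In cDC2-like cells Ccl4 (1.63), Ccr1 (1.78), Irf1 (1.50) and Jun (1.90) rose, while F13a1 (-2.62) fell. In αβ T-like cells Itga4 (2.30) rose and Ccr8 (-2.67) fell, in NK-like cells Jun (2.24) rose, and in mast-like cells Itga4 (3.64) rose. For the difference between macrophage-like and monocyte-like cells, Ccr1 (1.59) and Thbs1 (2.16) passed on the side of macrophage-like cells and Ccl17 (-4.89), Ccl24 (-4.80) and Nfkb1 (-1.11) on the side of monocyte-like cells.

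Genes known to rise when tissue is digested are given beside the results above. The summed level of 9 such genes was higher in tumors, at 37.1 and 37.3 UMIs per 10,000 in control skins and 68.0 and 63.6 in tumors over all cells, and 59.2, 65.7, 74.2 and 74.5 in macrophage-like cells. The heat shock gene Hspa1a rose by 1.73 and Hspa1b by 1.34 over all cells while Fosb fell by 1.28, and no other gene of the list passed there. Their list median was 0.09 over all cells, -0.08 in macrophage-like cells, where none passed, and -0.25 in monocyte-like cells, where Hspa1a (2.08) and Hspa1b (1.93) rose. Hspa1a also rose in cDC2-like (2.39), αβ T-like (2.95) and NK-like cells (2.15), Hspa1b in cDC2-like cells (1.85) and Atf3 in NK-like cells (1.37). The difference between macrophage-like and monocyte-like cells was -1.22 for Hspa1a and -1.25 for Hspa1b, both past the threshold. Their part in the chemokine levels was not tested. Xist was at most 0.00618 UMIs per 10,000 over all cells and Y-linked genes were found in all 4 libraries.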

How the data were processed

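The authors deposited raw UMI counts per gene and cell, library by library, made with Cell Ranger (version 7.1.0 in the submitters' processing notes, 7.0.1 in the headers) on mouse genome mm10, without normalization or pooling. Cells with at least 100 genes, 1000 UMIs, log10 genes at least 0.8 times log10 UMIs and at most 15% mitochondrial UMIs were kept, the thresholds of the study. Doublets were scored with the Scrublet method of scanpy 1.11.5, and the top 1% per 1000 cells was removed (453 cells). Classes were gated on summed marker UMIs per 10,000. Levels are a gene's UMIs over the UMIs of the class or library. Counts of 3′ ends were not scaled by length, so genes are not compared with each other.

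Counts were summed per library and class and tested with edgeR 4.0.16 (quasi-likelihood, TMM, filterByExpr), adjusted over all genes of a fit by the Benjamini-Hochberg method, with a threshold of 0.05, in 6 classes chosen by design, each with at least 20 cells in each library; other classes are given as levels with no test. The SE was derived from the fold change and its F statistic. DESeq2 1.42.0 was an alternative, as were other size factors, no low-count filter, a replicate block, each library left out, doublets kept, all barcodes and doubled gate thresholds. The tests were tested on simulated data. The members and lists were chosen with earlier results of these data known. Named genes are the members, list genes past the threshold, up to 4 per list and direction, and the 5 most correlated genes of each member, from log2(level + 0.1) and at least 200 UMIs. Some items that these rules name, and some details of the tumor model, are not reported here. Marker, resident, cycling, Arg1 and collagen genes describe the classes, and those beyond the gates were picked after values had been seen. Reads shared between similar chemokine genes may be lost or split in counting. Shares of cells carry counting error only.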

Additional observations from a re-analysis of the deposited data

Results flagged for a closer look

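The tumor effect on Ccl8 differed between macrophage-like and monocyte-like cells by 2.49 on the log2 scale (adjusted p = 0.0171, edgeR interaction test). Macrophage-like cells had 2.91 and 7.24 UMIs per 10,000 in control skins and 18.6 and 13.3 in tumors. Monocyte-like cells had 0.0318, from a single UMI, and 1.00 in control skins and 0.288 and 0.304 in tumors. DESeq2 did not call the difference (1.42). Without control 2 the difference was -0.93.

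In 3 further pairs of classes, both tumors lay above both control skins in one class and below both in the other. These were picked by looking through the pairs of the 6 fitted classes for each member. The share of all genes with such pairs was not counted, and these differences were not tested. Ccl2 was higher in tumors in macrophage-like cells and lower in cDC2-like cells, a difference of log2 fold changes of 2.49. The cDC2-like cells of tumors also had less Lyz2, at 6.09 and 15.6 UMIs per 10,000 against 42.4 and 40.7 in control skins. Ccl2 was also higher in αβ T-like cells, which differed from cDC2-like cells by 4.90. Its levels there were low, at 0.0126 and 0.0854 UMIs per 10,000 in control skins and 0.0885 and 0.755 in tumors. Tumor 1 thus lay barely above the higher control skin. Tumor 2 had the 0.755, with 2.95 C1qa UMIs per 10,000 in its αβ T-like cells. Ccl8 was higher in macrophage-like and lower in mast-like cells, a difference of 3.31. In control skins 4 of 41 and 6 of 57 mast-like cells held 99.4% and 95.8% of the summed Ccl8 level of their class.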

How the results depend on the processing

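Of the recomputed values that answer a comparison, 210 stayed as reported (direction and side of the threshold, or a count or level within its tolerance), 61 counts or levels moved, 28 fold changes gained a call, 11 lost one and 12 changed sign. For members in the other classes 114 stayed, 24 gained a call and 2 changed sign. Over all cells, leaving out 1 library gave log2 fold changes of 2.10 to 3.34 for Ccl2, 1.36 to 2.74 for Ccl7, 2.38 to 3.21 for Ccl8, 2.28 to 3.69 for Ccl12 and 0.41 to 0.93 for Ccr2, and 0 to 5957 genes called. Without either control library edgeR called 0 genes, with 3379 (without control 1) and 4169 (without control 2) at an unadjusted p under 0.05; DESeq2 was not run on these. With all 4 libraries, Ccl7 was called with DESeq2 (1.89), doublets kept (1.94), all barcodes (1.86) and no low-count filter (1.91). In the same order these settings called 4994, 4090, 4241 and 4206 genes, against 3795 with the reported settings. Ccr2 was called without non-immune and unassigned cells (0.88), among 4552 genes, a setting chosen after seeing the data. Both genes were also called when a tumor library was left out and a single tumor stood for its group. The replicate numbers only name the samples: deviations of same-numbered libraries had a Pearson r of 0.061 over 16354 genes. With the replicate block, 2320 genes and not Ccl12 (3.02) were called over all cells, 326 genes in macrophage-like, 110 in monocyte-like and 0 in αβ T-like cells, where 2112 had an unadjusted p under 0.05 and DESeq2 without the block called 787.

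In macrophage-like cells, leaving out 1 library gave 0.41 to 1.42 for Ccl2, -0.36 to 2.07 for Ccl7, 0.96 to 2.30 for Ccl8, 0.52 to 1.53 for Ccl12, -0.33 to 0.15 for Ccr2 and 1 to 1612 genes. With all 4 libraries, DESeq2 (Ccl8 1.45, Ccl12 1.10, 619 genes), no low-count filter (Ccl2 0.88, Ccl8 1.54, Ccl12 1.20, 1229 genes), doublets kept (284), the stricter gate (91) and added mixed cells (Ccl2 1.14, Ccr2 0.26, 690 genes) changed calls, counts or direction. Calls of ligands in this class also changed without 1 tumor library, where a single tumor stood for its group. In monocyte-like cells the ranges were -0.42 to 0.19 for Ccl2, -1.77 to -1.57 for Ccl7, -1.90 to 3.18 for Ccl8, -0.98 to 2.31 for Ccl12 and 0 to 324 genes. DESeq2 (Ccl12 -0.13, 109 genes), no low-count filter (Ccl8 -1.19, 362 genes) and the stricter gate (Ccl2 0.0206) differed. For the difference between these classes the ranges were 0.82 to 1.17 for Ccl2, 1.43 to 3.60 for Ccl7, -0.93 to 2.88 for Ccl8, -1.28 to 2.15 for Ccl12 and 72 to 140 genes. DESeq2 (Ccl7 2.41, Ccl8 1.42), doublets kept (Ccl2 1.00, Ccl7 2.16), no low-count filter (Ccl2 1.03, Ccl7 2.18, 360 genes) and the stricter gate (Ccl8 2.68, 31 genes) differed.

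Counts of genes called in mast-like, NK-like, αβ T-like and cDC2-like cells ran from 13 to 370, 163 to 309, 0 to 2319 and 0 to 2157 without 1 library. They were 139, 86 and 787 with DESeq2 and 176, 119 and 574 with doublets kept in the first 3 classes. With no low-count filter they were 637, 396, 1907 and 1798, and with the stricter gate 137, 58 and 521 in the first 3. Without 1 library Ccl2 in mast-like cells ran from -0.0041 to 2.15 and Ccl7 in αβ T-like cells from -0.60 to 3.50. With the stricter gate, Ccl12 was 1.33 UMIs per 10,000 in control macrophage-like cells, and Ccl2 3.41 and Ccl8 0.260 in tumor monocyte-like cells. At full depth 65.1%, 55.8%, 61.9%, 50.9% and 70.6% of tumor macrophage-like cells held Ccl2, Ccl7, Ccl8, Ccl12 and Ccr2, and 43.3%, 13.5%, 18.1%, 15.4% and 84.8% of tumor monocyte-like cells. The cause of these changes was not tested. With 2 libraries per group and 26 monocyte-like cells in control 1, differences within classes were estimated with wide error.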
